A study of Mus musculus with 12 samples.

Results

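The comparison of RNase-exposed with unexposed plasminogen asked how macrophages differ when the plasminogen preparation they receive has been in contact with RNases. It used 8 of the 12 libraries of the study, 4 from each treatment, and all genes with a scaled FPKM (fragments per length of gene and depth of library, after median-of-ratios scaling) of at least 1 in at least 4 of these 8 libraries. These were 10451 of the 32246 genes in the table. All cells were mouse macrophages that had been differentiated from bone marrow over 7 days in 50 ng/mL GM-CSF, a growth factor that yields macrophages together with cells that resemble dendritic cells. One group was given plasminogen (PLG) after contact with EACA, a lysine analogue that occupies the lysine-binding sites of plasminogen, for 24 h (PLG+EACA). For the other group, also treated for 24 h, the contact was with EACA and RNases together (PLG+EACA+RNase). The remaining 4 libraries, from untreated cells, serve here as a reference level. Strain, age and genotype are not given in the labels, no group received plasminogen without EACA, EACA alone or RNase alone, and the RNases used are not named. Whether the 4 replicates are separate animals, cultures or extractions is not stated in the labels, so p-values here reflect only the spread among these samples.

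Plasminogen is the circulating precursor of plasmin, the protease that dissolves fibrin, and it binds to macrophages through exposed lysine residues. Macrophages sense RNA that reaches their endosomes through Toll-like receptors, and RNA in the cytosol through the RIG-I-like receptors. Both routes switch on interferon beta, which acts back on the cells through STAT and IRF transcription factors and raises a large set of antiviral genes. Many of these genes carry an interferon-stimulated response element close to their start. Inducible HSP70 chaperones belong to a separate programme, the heat shock response.

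With RNase exposure, the median level of interferon-stimulated antiviral genes was lower than with PLG+EACA but above that of untreated cells. Both inducible HSP70 genes were higher than with PLG+EACA. Of 81 tested interferon-stimulated antiviral genes, 46 fell, against 7.44% of all genes tested, and none rose, with a median log2 fold change of -0.89. Of 32 tested cytokine genes, 7 fell and none rose. The cytokine genes Il6, Il27, Il15 and Tnfsf10 fell by 0.97 to 1.26 on the log2 scale. Il27 was chosen after its values were seen, and its groups overlapped. The chaperone genes Hspa1a and Hspa1b rose 3.85-fold and 3.77-fold. Across all 10451 genes, limma with Benjamini-Hochberg adjustment put 372 genes higher (3.56%) and 778 lower (7.44%) with PLG+EACA+RNase, 1150 in either direction (11.0%). A change of at least 1.5-fold was found in 345 of them (3.30%), 165 higher (1.58%) and 180 lower (1.72%). In 648 genes every PLG+EACA+RNase library lay above every PLG+EACA library (6.20%), and in 1689 every one lay below (16.2%). The median log2 fold change of all tested genes was -0.06.

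Counts of list members below are to be read beside the 3.56% of all tested genes that rose and the 7.44% that fell. The following limits apply to every count. The balance turned with the scaling: on the values as deposited, 441 genes were higher and 351 lower, and with upper-quartile scaling 440 and 299. The counts also depended on single libraries: without replicates 1, 2, 3 or 4 of PLG+EACA, 50, 29, 62 and 70 genes were higher and 8, 3, 20 and 40 lower. Without replicates 1, 2 or 3 of PLG+EACA+RNase 5 genes were higher each time and 0 lower, while without its replicate 4 the counts were 700 and 1479. The 46 lower interferon-stimulated genes became 0 when any 1 library other than that replicate 4 was left out, and 74 without it. The calls of Hspa1a and Hspa1b were lost without PLG+EACA replicates 1 or 2 or RNase replicates 1, 2 or 3 (adjusted p from 0.0618 to 0.104), and that of Hspa1b also without PLG+EACA replicate 4 (0.0501). Of the 113 called genes named in the text, 95 to 108 lost their call in each of those 7 leave-outs. With no scaling 20 of them lost it, with upper-quartile scaling 30 and with no filter on low values 106. Each of the 1150 genes kept its sign in every such setting that gave it a value. That was nearly fixed in advance, since the genes were called in these same libraries, so it is no separate support. Leaving the low values in does not alter a fold change at all.

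Libraries stood apart within both groups before any gene was tested. On the first principal component, which held 48.3% of the variance, PLG+EACA replicate 4 lay at -32.4 and the other PLG+EACA libraries between -10.1 and -9.0. PLG+EACA+RNase replicate 4 lay at 0.209, nearest to PLG+EACA, and the other RNase libraries between 11.9 and 26.3. Replicate 4 of each treatment also had the highest level of interferon-stimulated genes in its group. Without replicate 4 of both groups, an alternative chosen after seeing the data, 687 genes were higher and 1425 lower. Depth ran from 12940888 to 22677046 counted reads in the 8 libraries.

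**Figure D1:**
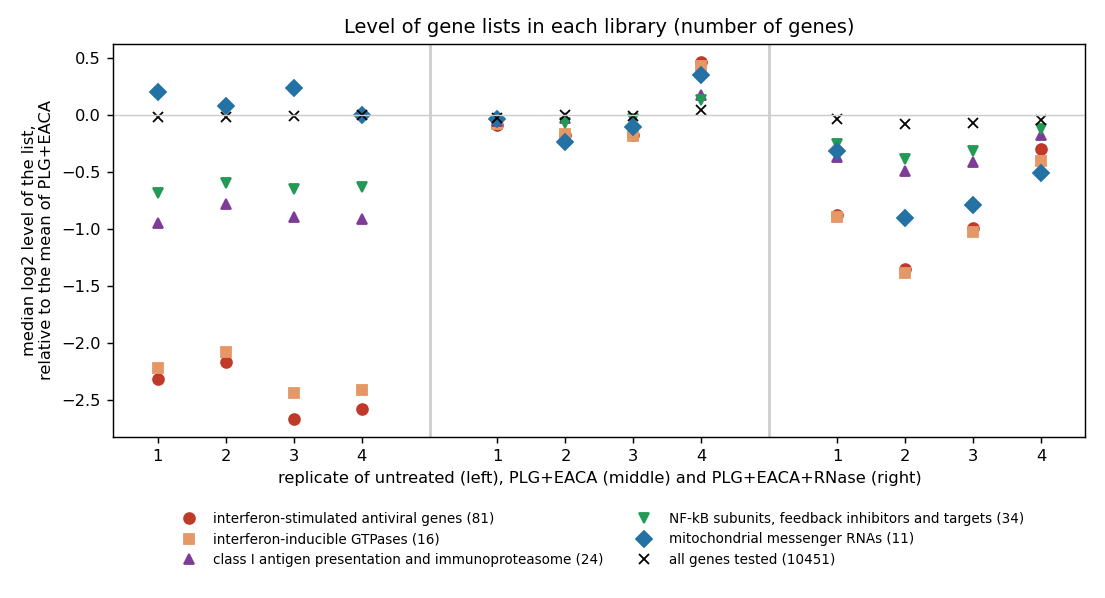
Level of 5 gene lists and of all genes tested in each library, as the median over the list's genes of log2(scaled FPKM + 0.5), relative to the mean of the 4 PLG+EACA libraries. Untreated libraries are on the left, PLG+EACA in the middle and PLG+EACA+RNase on the right, and 1 symbol is 1 library. The interferon-stimulated list lay between -2.67 and -2.17 in untreated cells and between -1.36 and -0.299 with PLG+EACA+RNase.

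The 81 interferon-stimulated genes moved as a block from library to library. Relative to the mean of PLG+EACA, their median level was -0.0928, -0.181 and -0.182 in PLG+EACA replicates 1 to 3 and 0.463 in replicate 4. With PLG+EACA+RNase it was -0.883, -1.36, -0.998 and -0.299 in replicates 1 to 4, and in untreated cells -2.32, -2.17, -2.67 and -2.58. All 4 RNase libraries lay below all 4 PLG+EACA libraries and above all 4 untreated libraries, with RNase replicate 4 close to PLG+EACA replicates 2 and 3. In bulk RNA, fewer responding cells and less RNA per cell cannot be told apart.

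Short stretches of promoter show the element that many of these genes share. The 5 stretches below, from RefSeq (GRCm38.p6), lie in the 250 bases before the start of genes that fell, written 5′ to 3′ on the gene's strand. Capitals mark the core of the interferon-stimulated response element, searched as GAAANNGAAA and, on the other strand, TTTCNNTTTC, with a promoter counted once where matches overlap or repeat. Ifit1 (chr19:34640764-34640853, plus strand) encodes a protein that binds viral RNA. Oas1g (chr5:120887614-120887665, minus strand) belongs to the family of oligoadenylate synthetases, which sense double-stranded RNA. Trim30d (chr7:104507850-104507930, minus strand) is one of a cluster of TRIM genes, and Slfn5 (chr11:82951907-82951996, plus strand) is a Schlafen gene. Calhm6 (chr10:34127987-34128076, minus strand) encodes a channel protein of the calcium homeostasis modulator family and stands outside the interferon lists used here.
Ifit1: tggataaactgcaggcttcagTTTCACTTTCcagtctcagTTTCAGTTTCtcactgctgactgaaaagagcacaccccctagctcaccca
Oas1g: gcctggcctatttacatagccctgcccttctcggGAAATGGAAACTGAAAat
Trim30d: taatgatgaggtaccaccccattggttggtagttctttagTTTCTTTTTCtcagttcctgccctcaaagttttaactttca
Slfn5: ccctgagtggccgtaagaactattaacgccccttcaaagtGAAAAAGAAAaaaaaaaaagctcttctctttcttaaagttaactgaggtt
Calhm6: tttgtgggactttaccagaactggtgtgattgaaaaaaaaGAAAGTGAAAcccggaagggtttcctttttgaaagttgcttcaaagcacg

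The core was present in 978 of all 32851 RefSeq promoter windows (2.98%) and in 3.52% of tested genes with a promoter. Of the 619 genes that fell and had a promoter, 44 held it (7.11%), and of the 134 that fell at least 1.5-fold, 29 (21.6%). Among the 252 genes that rose and had a promoter, 4 held it (1.59%). In the interferon lists the core was found in 39 of 75 promoters (52%), and in 21 of the 45 whose genes fell (46.7%). Outside those lists it was found in 23 of the 574 genes that fell (4.01%), near the share of tested genes, and in 8 of the 91 that fell at least 1.5-fold (8.79%). These shares are descriptions of letters near gene starts, and a match is not a shown binding site.

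Among genes whose products bind or degrade foreign RNA, the IFIT family gave the largest named decrease. Ifit2 (chr19:34550694-34576419), which binds viral RNA, had a scaled FPKM of 297.5, 283.5, 256.3 and 511.1 in PLG+EACA replicates 1 to 4. With PLG+EACA+RNase it had 122.0, 92.4, 107.1 and 248.8, and untreated cells had 10.8 to 20.1. The groups did not overlap, but RNase replicate 4 came within a few units of PLG+EACA replicate 3. Its log2 fold change was -1.30 (SE 0.32, limma adjusted p = 0.0409). Ifit1 read 142.1, 132.7, 139.9 and 256.8 against 72.1, 48.5, 68.5 and 125.0, and fell by 1.12 on the log2 scale (SE 0.30, limma adjusted p = 0.0473). Replicate 4 was again the highest of each group. Ifit3, chosen after its values were seen, fell 2.40-fold although its groups overlapped, because RNase replicate 4 (137.9) exceeded PLG+EACA replicate 3 (135.1).

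The oligoadenylate synthetase Oas1g, whose promoter is shown above, gave the firmest call of the list. Its scaled FPKM was 19.2, 17.5, 17.7 and 27.4 with PLG+EACA and 9.28, 7.17, 8.53 and 13.6 with PLG+EACA+RNase. No RNase library reached the lowest PLG+EACA library, and the fold change was 2.08 downward (log2 fold change -1.06, SE 0.20, limma adjusted p = 0.0306). Eif2ak2 encodes PKR, the kinase that halts translation on double-stranded RNA. It measured 33.1, 30.7, 30.8 and 41.6 against 19.0, 14.3, 17.4 and 26.5, a 1.78-fold decrease (adjusted p = 0.0342). Nmi, which encodes a partner of STAT proteins, fell 1.88-fold, and Trim30d fell 1.94-fold. Rsad2, the antiviral enzyme viperin, was among the most abundant of these transcripts and was named after its values were seen. It read 462.2, 420.4, 418.8 and 681.8 against 234.1, 191.3, 228.6 and 380.8, with 13.4 to 23.7 in untreated cells, and fell 1.94-fold (limma adjusted p = 0.0391).

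Genes of the same list with other functions followed. Ifi44 read 15.1, 12.7, 12.6 and 23.9 against 6.98, 4.14, 5.45 and 12, and fell 2.25-fold. The PHD finger gene Phf11d fell 2.22-fold and Ifi209, of the AIM2-like cluster of nucleic acid sensors, 2.20-fold. Slfn5 and Slfn1 fell 2.19-fold and 2.18-fold. For Slfn5, 114.4, 105.1, 104.5 and 172.4 stood against 56.2, 39.2, 46.7 and 89.1, so the highest RNase library stayed below every PLG+EACA library. Not every member passed the test. Isg15, a ubiquitin-like modifier named after its values were seen, had 533.9, 520.6, 554.6 and 786.4 against 380.9, 303.8, 402.0 and 540.0 (limma adjusted p = 0.0755), with overlapping groups. Mx1 and Oasl1, also named after their values were seen, had log2 fold changes of -1.24 and -0.44 (adjusted p = 0.0634 and 0.229). Of the 81 genes, 80 had a log2 fold change below 0, where the median of all tested genes was -0.06. Under every alternative run all but 1 of the members tested were below 0. The alternatives reuse these same libraries, so that was nearly fixed in advance and is no separate support. In 53 of the 81 genes the groups did not overlap, all lower, as was the case in 16.2% of all tested genes.

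The interferon-inducible GTPases, large proteins that attack the vacuoles of intracellular microbes, were lower in 12 of 16 tested genes and higher in none, with a median of -0.91. Ifi47, an immunity-related GTPase gene, had 62.1, 64.0, 60.2 and 116.8 with PLG+EACA and 32.4, 20.1, 25.6 and 51.3 with PLG+EACA+RNase. It fell 2.37-fold (log2 fold change -1.24, SE 0.30, limma adjusted p = 0.0399), and PLG+EACA replicate 4 stood well above the rest. Irgm2, a regulator of that family which overlaps Igtp on the same strand, fell 2.17-fold. The guanylate-binding protein genes Gbp6 and Gbp7 fell 1.83-fold and 1.73-fold. Gbp8, weakly expressed and overlapping Gbp9 and Gbp4, fell 1.35-fold, from 1.65 to 1.83 down to 1.00 to 1.36, and its replicate 4 did not stand out with PLG+EACA.

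**Figure D2:**
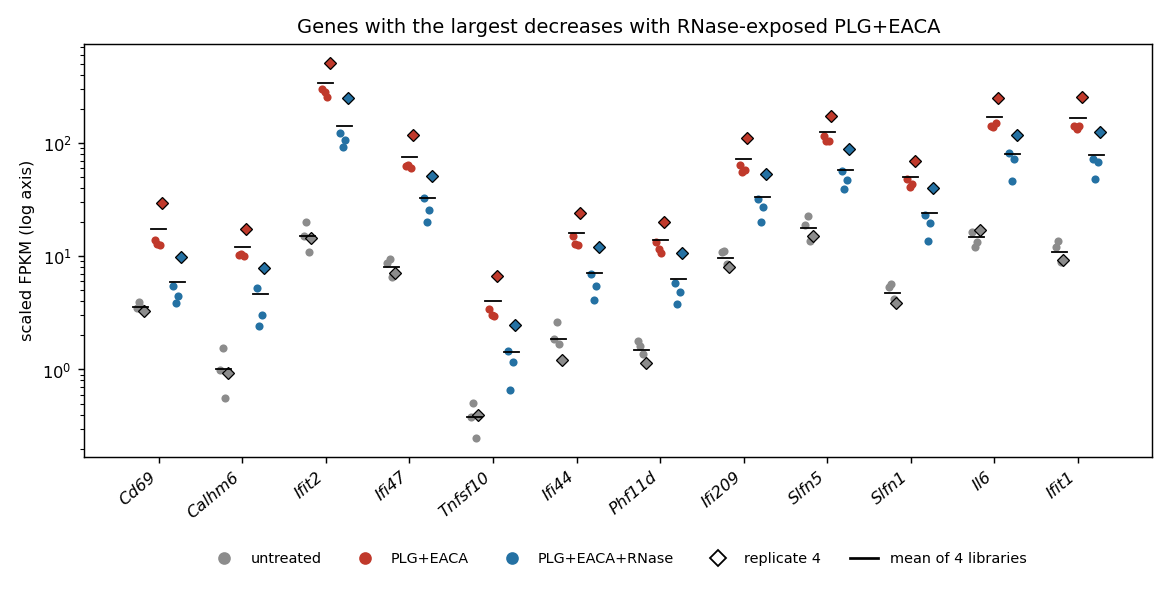
Scaled FPKM on a log axis of the 12 genes with the largest decreases among called genes with a named symbol, a mean of at least 1 FPKM and groups that do not overlap, in untreated (grey), PLG+EACA (red) and PLG+EACA+RNase (blue) libraries; diamonds mark replicate 4 and bars the mean of 4 libraries. The diamond is the highest of each blue group, from 9.92 against at least 12.6 for Cd69 to 248.8 against at least 256.3 for Ifit2.

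Upstream of these genes the differences were smaller. Of 29 tested genes for interferons, their receptors and JAK-STAT signalling, 6 fell and none rose (median -0.32). This list did not stay above untreated cells. Relative to the mean of PLG+EACA, its median level was -0.312, -0.557, -0.378 and -0.120 in RNase replicates 1 to 4. In untreated cells it was -0.281 to -0.222. Ifnb1 encodes interferon beta and was measured close to the lower limit used here; it was named after its values were seen. It had 3.04, 3.13, 2.92 and 4.57 with PLG+EACA. RNase exposure gave 2.21, 2.07, 1.66 and 2.43, and untreated cells 0.273 to 0.565. The groups did not overlap, and the fold change of 1.5 downward carried a limma adjusted p of 0.0400. The call was lost with voom on the recovered reads (0.0588), with no filter on low values (0.0959) and without any 1 library other than RNase replicate 4 (0.0571 to 0.119). Stat2, a subunit of the factor that binds the element shown above, fell 1.68-fold, from 81.7 to 107.8 down to 40.8 to 78.4. Irf1 fell 1.39-fold and Irf2 1.48-fold. Irf1 differed from most of the list in that PLG+EACA replicate 4 (94.4) lay among the other 3 (91.0 to 105.8). Ptpn2, a phosphatase that restrains JAK-STAT signalling, fell 1.17-fold, but its log2 fold change of -0.23 became -0.13 with no scaling (adjusted p = 0.126) and -0.14 with upper-quartile scaling (0.0955).

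Receptors that detect RNA were among the genes that fell. Of 31 tested genes for RNA sensing, 9 fell and 1 rose (median -0.20). Tlr7, the endosomal receptor for single-stranded RNA, had 21.9, 19.1, 20.8 and 29.3 with PLG+EACA and 15.3, 10.7, 14.4 and 16.2 with PLG+EACA+RNase. It fell 1.58-fold (log2 fold change -0.66, SE 0.16, limma adjusted p = 0.0387), and untreated cells lay at 15.8 to 18.9, under all PLG+EACA libraries and around the highest RNase library. Myd88, the adaptor of Tlr7, fell 1.70-fold and overlaps Acaa1a on the other strand. Tank, a scaffold of the kinases that activate IRF3, and Lsm14a fell 1.28-fold and 1.26-fold, the latter overlapping another gene on the other strand.

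Several sensors of double-stranded RNA were chosen after their values were seen. Tlr3, the endosomal receptor, read 4.52, 3.90, 3.73 and 8.86 against 1.98, 1.19, 2.13 and 3.17, and fell 2.15-fold (limma adjusted p = 0.0467). Ddx58, which encodes RIG-I, fell 2.09-fold from 34.4 to 61.6 down to 13 to 32, and Ifih1, which encodes MDA5, 1.66-fold. Each of the 3 had groups that did not overlap. Ticam1, which encodes the TLR3 adaptor TRIF, was the member that rose, by 1.24-fold, from 13.3 to 15.2 up to 15.6 to 20.1. Of 10 tested ribonuclease genes none passed the test, and the median was -0.15.

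Surface Toll-like receptors and DNA sensors had 6 of 17 tested genes lower and none higher (median -0.42). Tlr2, the receptor for bacterial lipoproteins, had 67.1, 74.9, 68.3 and 110.9 with PLG+EACA and 48.9, 33.0, 41.0 and 53.4 with PLG+EACA+RNase. It fell 1.80-fold (log2 fold change -0.85, SE 0.19, limma adjusted p = 0.0364), and untreated cells had 90.9 to 94.9, so the RNase group lay below untreated cells. Tlr4, the endotoxin receptor, fell 1.34-fold, also to values (10.3 to 12.4) under those of untreated cells (15.0 to 15.8). The DNA sensor genes Cgas and Aim2 fell 1.52-fold and 1.47-fold. With PLG+EACA+RNase, Cgas (2.04 to 2.90) and Aim2 (7.65 to 10.5) overlapped untreated cells (2.11 to 3.07 and 8.43 to 9.47).

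Of 32 tested cytokine genes, 7 fell and none rose, with a median of -0.46. Il6, a cytokine of fever and the acute phase, had 141.2, 137.8, 151.4 and 250.6 with PLG+EACA and 80.8, 46.4, 72.9 and 118.6 with PLG+EACA+RNase, against 12 to 17.2 in untreated cells. It fell 2.18-fold (log2 fold change -1.12, SE 0.29, limma adjusted p = 0.0435), with every RNase library below every PLG+EACA library. The call was lost with upper-quartile scaling (0.05002), with size factors over the genes tested (0.0508) and with no filter on low values (0.105). It was also lost without any 1 library other than RNase replicate 4 (0.0668 to 0.119). Csf2, which encodes GM-CSF itself, was low, and it was under 1 FPKM in every RNase library. It entered the test only through the PLG+EACA group, so its call, the firmest among the cytokines, could only be a decrease. It read 1.46, 1.63, 1.61 and 1.91 against 0.770, 0.692, 0.275 and 0.651, and fell 1.99-fold (adjusted p = 0.0268). Its PLG+EACA replicate 4 stood less apart than that of Il6.

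Cytokines that act on lymphocytes fell too. Il15, a growth factor of NK cells, fell 1.96-fold, from 19.8 to 30.03 down to 7.79 to 17.0. Il12a, a subunit of IL-12, fell 1.77-fold, and Tnfsf10, the death ligand TRAIL, 2.36-fold, from 2.96 to 6.68 down to 0.652 to 2.47. Il27, chosen after its values were seen and overlapping Apobr on the other strand, had 73.1, 69.7, 61.0 and 131.6 against 28.6, 23.3, 29.3 and 61.6. It fell 2.39-fold (limma adjusted p = 0.0442), although RNase replicate 4 slightly exceeded PLG+EACA replicate 3. Csf1, the macrophage growth factor, fell 1.32-fold. Tnf and Il12b were named after their values were seen. Tnf had 536.8 to 784.4 against 407.8 to 520.2 and did not pass the test (adjusted p = 0.0563), and Il12b overlapped between groups (adjusted p = 0.130).

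Chemokines moved less, with 1 of 20 tested genes lower, a share near the 7.44% of all genes, and a median of -0.26. Cxcl1, a neutrophil attractant, fell 1.35-fold, from 112.2 to 155.0 down to 85.2 to 98.6. Cxcl10, an interferon-induced attractant of T cells, had 153.7, 154.0, 131.5 and 357.0 against 83.2, 38.4, 63.9 and 124.5. Its groups did not overlap and its fold change was 2.56, with an adjusted p of 0.0577 in limma. PLG+EACA replicate 4 lay far above the other 3 libraries. Cxcl9 had 2.25 to 6.44 against 0.312 to 2.09 (adjusted p = 0.0815). Of the enzymes for prostaglandins, nitric oxide and itaconate, 2 of 21 fell and 1 rose, against 7.44% and 3.56% of all genes. Ptgs2, the inducible cyclooxygenase, had 622.1 to 959.0 with PLG+EACA and 382.4 to 569.1 with PLG+EACA+RNase, a 1.55-fold decrease, and Ltc4s, which makes leukotriene C4 and overlaps another gene on the other strand, rose 1.36-fold.

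NF-kB subunits, inhibitors and targets had 11 of 34 tested genes lower and none higher (median -0.28), where 7.44% of all tested genes were lower. In 18 the groups did not overlap, against 16.2% of all genes lower without overlap and 6.20% higher. Icam1, an adhesion molecule, had 171.0, 196.2, 172.3 and 178.7 with PLG+EACA and 133.9, 125.5, 134.5 and 146.0 with PLG+EACA+RNase. It fell 1.33-fold (log2 fold change -0.41, SE 0.07, limma adjusted p = 0.0268), and PLG+EACA replicate 4 lay within the range of the other 3. Bcl2a1b, a survival gene with near-identical copies whose value is therefore uncertain, fell 1.44-fold, Plek 1.37-fold and Birc2 1.22-fold. Inflammasome and IL-1 family genes had 6 of 20 lower and none higher (median -0.46). The inflammatory caspase genes Casp4 and Casp1 fell 1.51-fold and 1.43-fold, and the flagellin sensor gene Naip5 1.36-fold.

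Of 24 genes for class I antigen presentation and the immunoproteasome, 10 fell and none rose (median -0.36). H2-M3, a nonclassical class I gene, had 31.7, 31.9, 31.1 and 39.5 against 21.8, 21.6, 22.5 and 23.5, with little spread among the RNase libraries. It fell 1.48-fold (log2 fold change -0.57, SE 0.08, limma adjusted p = 0.0187). Tapbpl, a peptide editor, fell 1.56-fold, the proteasome activator gene Psme2 1.39-fold and the peptide-trimming enzyme gene Erap1 1.33-fold; Tapbpl and Erap1 each overlap a gene on the other strand. None of the 18 class II genes passed the test, and their median, -0.03, lay beside that of all genes. Of 22 costimulatory and checkpoint genes 1 fell. It was Cd69, an early activation marker of lymphocytes that interferon also induces.

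Cd69 (chr6:129267325-129275436) had the largest decrease named. It read 13.9, 12.9, 12.6 and 29.6 with PLG+EACA. RNase exposure gave 5.50, 3.83, 4.47 and 9.92, and untreated cells 3.27 to 3.94. Its groups did not overlap, and it fell 2.75-fold (log2 fold change -1.46, SE 0.33, limma adjusted p = 0.0370). Calhm6 followed, with 10.2, 10.5, 10 and 17.3 against 5.20, 2.43, 3.02 and 7.80, a 2.59-fold decrease (adjusted p = 0.0377). In both genes PLG+EACA replicate 4 was far above the other 3.

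**Figure D3:**
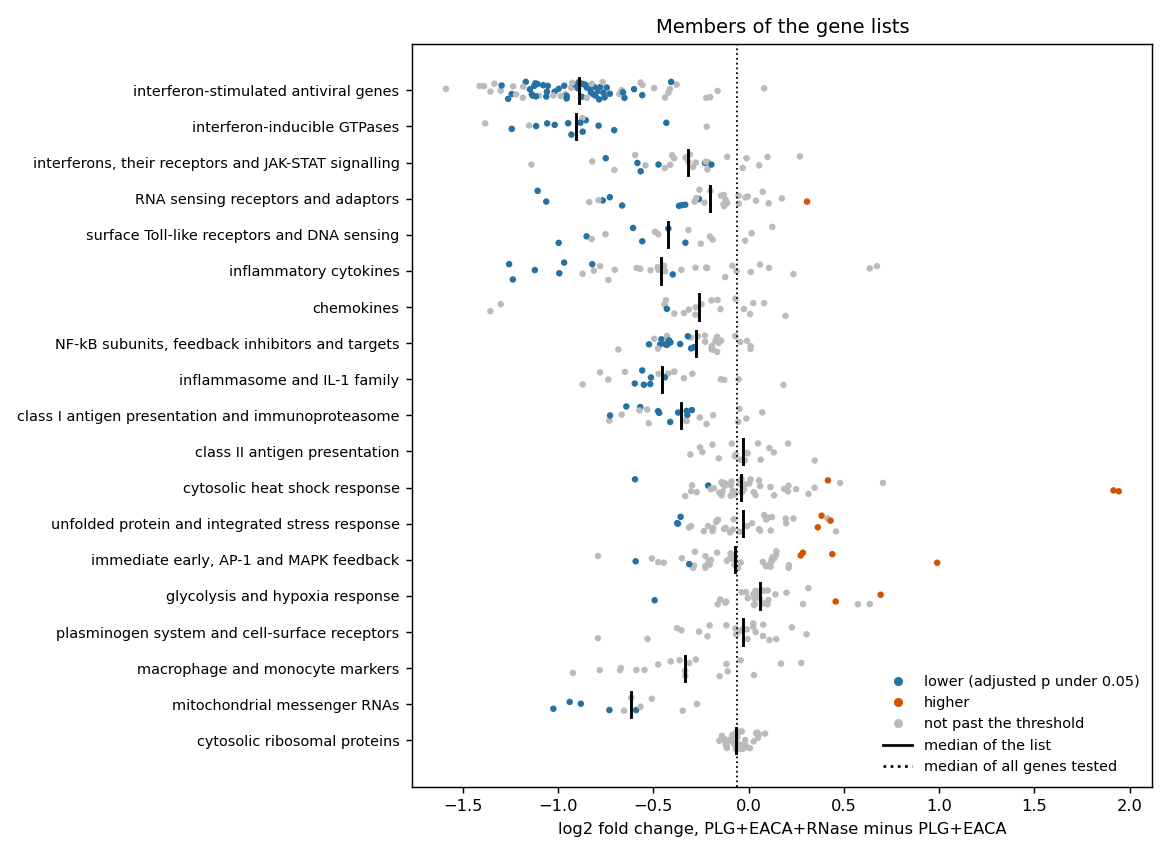
Log2 fold change (PLG+EACA+RNase minus PLG+EACA) of every tested member of 19 lists; blue and orange points passed the threshold as lower and higher, grey points did not, black bars are list medians and the dotted line the median of all genes, -0.06. The interferon lists lie to the left, at medians of -0.89 and -0.91, class II genes and ribosomal proteins near the dotted line, and Hspa1a and Hspa1b alone at the right.

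The inducible HSP70 genes rose the most of the genes that the naming rule selects. Hspa1a (chr17:34969190-34972156) had a scaled FPKM of 6.17, 6.46, 8.13 and 3.15 in PLG+EACA replicates 1 to 4, and 25.3, 26.9, 33.9 and 12.6 with PLG+EACA+RNase. Untreated cells had 0.224 to 0.429. The lowest RNase library, replicate 4, lay above the highest PLG+EACA library, and replicate 4 was the lowest of each treatment. The log2 fold change was 1.94 (SE 0.33, limma adjusted p = 0.0268). Its neighbour Hspa1b (chr17:34956436-34959238) had 8.96, 8.36, 10.8 and 4.96 against 33.9, 38.4, 45.2 and 16.6 (log2 fold change 1.92, SE 0.32, adjusted p = 0.0268). The copies are near-identical, so how reads were divided between them is uncertain.

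The cytosolic heat shock list held few other calls. Of its 47 tested genes 3 rose and 2 fell, shares near those of all genes, and the median was -0.04. The third that rose was Zfand2a, an arsenite- and heat-inducible proteasome adaptor named after its values were seen. It read 28.0, 28.4, 31.3 and 26.4 against 40.8, 41.2, 40.6 and 31.1, a 1.33-fold change (limma adjusted p = 0.0391) with groups that overlapped at RNase replicate 4. Hsph1, an HSP70 nucleotide exchange factor also named after its values were seen, had 5.24 to 7.10 against 6.43 to 10.4 and did not pass (adjusted p = 0.0615). Bag5, an HSP70 co-chaperone, fell 1.16-fold (log2 fold change -0.21, and -0.12 with no call under no scaling or upper-quartile scaling), and Sertad1 1.51-fold. A heat shock element, searched in the same windows as GAANNTTCNNGAA and TTCNNGAANNTTC, was in 0.466% of all windows, in 3 of 40 promoters of the list and in none of the 252 promoters of genes that rose, which says only that these letters are not in those windows.

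**Figure D4:**
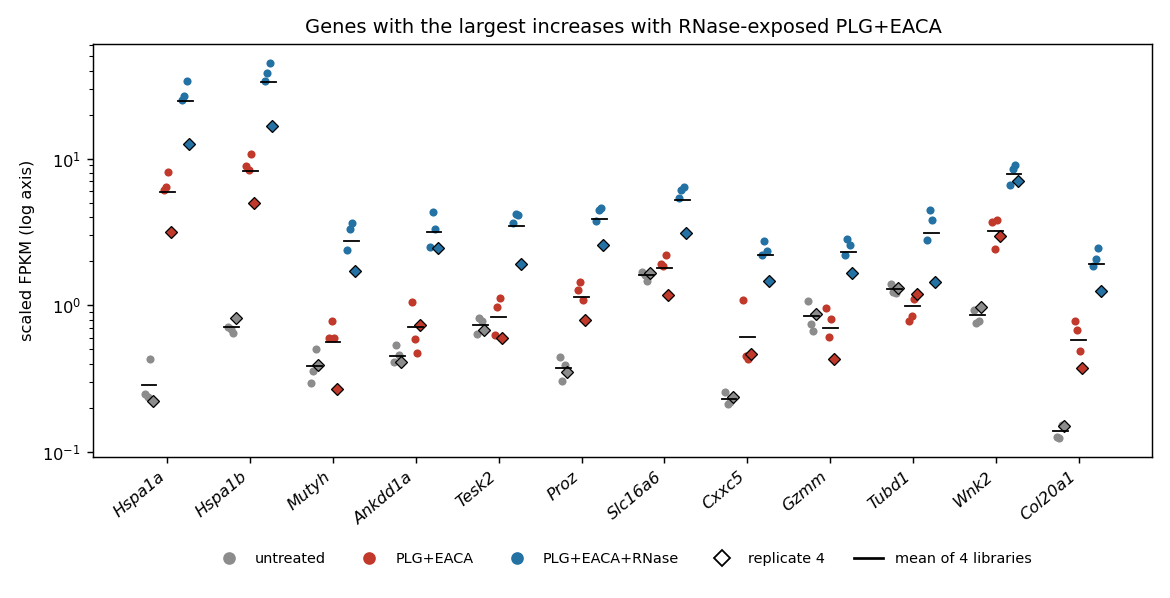
Scaled FPKM on a log axis of the 12 genes with the largest increases among called genes with a named symbol, a mean of at least 1 FPKM and groups that do not overlap, in untreated (grey), PLG+EACA (red) and PLG+EACA+RNase (blue) libraries; diamonds mark replicate 4 and bars the mean of 4 libraries. Only Hspa1a and Hspa1b exceeded 10 FPKM with RNase, and their replicate 4 was the lowest blue point, at 12.6 and 16.6.

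Of 36 genes for the unfolded protein and integrated stress response, 3 rose and 3 fell, against 3.56% and 7.44% of all genes. Manf, a secreted factor of the endoplasmic reticulum, had 10.2, 10.2, 10.1 and 10.2 with PLG+EACA and 14.4, 13.6, 15.0 and 12.7 with PLG+EACA+RNase. It rose 1.35-fold (log2 fold change 0.43, SE 0.06, limma adjusted p = 0.0180), with overlapping genes on both strands, and Creld2 rose 1.29-fold. Asns and Mthfd2, targets of ATF4 in amino acid and folate metabolism, fell 1.29-fold and 1.30-fold. Among metallothionein and zinc transport genes, 2 of 13 rose and 2 fell. Mt3 rose 1.85-fold, from 3.22 to 4.31 up to 6.35 to 8.60, and Mt2 1.32-fold, while the zinc transporter genes Slc30a4 and Slc39a14 fell 1.38-fold and 1.21-fold. Of 33 NRF2 antioxidant genes 1 fell and none rose.

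Immediate early, AP-1 and MAPK feedback genes had 4 of 42 higher and 2 lower, against 3.56% and 7.44% of all genes. Klf2, a transcription factor that restrains macrophage activation, had 2.39, 3.59, 2.28 and 1.55 against 5.75, 6.54, 5.20 and 3.66. It rose 1.99-fold (log2 fold change 0.99, SE 0.22, limma adjusted p = 0.0354), and RNase replicate 4 was just above PLG+EACA replicate 2. Its relative Klf4 moved the other way, from 13.6 to 19.7 down to 9 to 12.6, a 1.51-fold decrease. The growth-response factor gene Egr1 rose 1.36-fold and the MAPK phosphatase gene Dusp1, which overlaps Ergic1 on the other strand, 1.22-fold. Of 29 genes for glycolysis and hypoxia, 2 rose and 1 fell, against the same shares of all genes, with the list's median at 0.06. Egln3, a hypoxia-induced oxygen sensor, rose 1.62-fold from 1.41 to 1.92 up to 2.37 to 3.86, and the lactate exporter gene Slc16a3, overlapping Csnk1d, 1.37-fold. Slc2a6, a sugar transporter gene, fell 1.41-fold. Hilpda, a lipid droplet protein gene that hypoxia also induces, rose 1.93-fold with groups that overlapped.

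Surface receptors and the plasminogen system gave few calls. Of 39 phagocytic, Fc and lectin receptor genes 1 rose and 3 fell, shares near the 3.56% and 7.44% of all genes. Marco, a scavenger receptor gene, rose 1.54-fold, from 8.71 to 10.6 up to 12.7 to 17.4 (limma adjusted p = 0.0268), while another scavenger receptor gene, Msr1, fell 1.35-fold. The C-type lectin genes Clec4e and Clec4d fell 1.35-fold and 1.22-fold. None of 23 genes for the plasminogen system and its cell-surface receptors passed the test (median -0.03). Plau, the urokinase that activates plasminogen, had 191.0 to 220.1 against 209.0 to 297.0 (adjusted p = 0.0929), and Serpinb2, its inhibitor PAI-2, 294.0 to 628.4 against 158.8 to 283.6 (adjusted p = 0.0683). Plg itself was at most 0.0299 in any library and was not tested.

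Apart from HSP70, the largest increases that the naming rule selects were in weakly expressed genes. Mutyh, a DNA glycosylase gene, had 0.601, 0.777, 0.601 and 0.267 with PLG+EACA and 2.39, 3.31, 3.65 and 1.71 with PLG+EACA+RNase, a 3.04-fold rise (limma adjusted p = 0.0180). Ankdd1a, which overlaps Spg21 on the other strand, rose 3.01-fold from 0.472 to 1.05 up to 2.47 to 4.34, and the kinase gene Tesk2 2.92-fold. Proz, a gene of the coagulation system known mainly from liver, had 0.790 to 1.44 against 2.58 to 4.63 and rose 2.63-fold. Slc16a6, overlapping genes on the other strand, rose 2.48-fold, Cxxc5 2.46-fold, Gzmm, a lymphocyte granzyme gene, 2.35-fold, Tubd1 2.31-fold, the kinase gene Wnk2 2.25-fold and the collagen gene Col20a1 2.22-fold. The rule chose these 10 genes for groups that do not overlap, so that trait is no separate support. Wnk2 had the highest level among them, 2.42 to 3.81 against 6.63 to 9.07. Genes under 1 FPKM in all 4 PLG+EACA libraries could pass the lower limit only by being higher with RNase; 48 of the 372 higher genes, and 63 of all tested genes, were of this kind.

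Calls differed by level and gene class. Among genes with a mean under 2 FPKM, 115 of 1996 rose and 27 fell. The lower limit sets part of that split: with only the 1919 of them that reached 1 FPKM in a library of each group, 68 rose (3.54%) and 23 fell (1.20%). Among those over 50 FPKM, 1 of 793 rose and 112 fell. Long noncoding RNAs rose in 50 of 386 (13%) and fell in 4 (1.04%). Protein-coding genes rose in 292 of 9355 (3.12%) and fell in 758 (8.10%). Position differed as well. Of the 372 genes that rose, 55 (14.8%) began within 10 kb downstream of an expressed gene on the same strand (mean of at least 10 FPKM), as did 54 of the 778 that fell (6.94%) and 696 of all 10451 (6.66%). A further 49 (13.2%) overlapped such a gene, against 34 that fell (4.37%) and 873 of all (8.35%). Genes that rose were weaker than all tested genes, with a median level of 3.49 against 5.65 FPKM. Under a mean of 5 FPKM, 15.1% of the 232 that rose lay downstream and 18.1% overlapped. Of all 4878 tested genes at that level, 5.62% and 11.6% did. The class and position shares of genes that rose include the 48 under 1 FPKM in all PLG+EACA libraries. Proz starts 4238 bases past F10 and Gzmm 622 bases past Cdc34. These splits by level, class and position were made after seeing the data, and the shares are given with no test.

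The neighbourhood of Prdx1, an abundant peroxidase gene on chromosome 4, held several of these genes and was chosen after its values were seen. Prdx1 (chr4:116685544-116700822) read 1330, 1389, 1384 and 1629 with PLG+EACA and 1352, 1149, 1249 and 1289 with PLG+EACA+RNase, and did not pass the test (limma adjusted p = 0.167). Mmachc is a cobalamin-processing gene on the other strand, and its 3′ end lies 1.46 kb beyond Prdx1. It rose 2.06-fold (adjusted p = 0.00601), from 2.17 to 2.57 up to 4.59 to 6.40. Ccdc163, which overlaps Tesk2, rose 1.87-fold, and Hpdl, 119.1 kb away, 2.59-fold from 0.176 to 0.365 up to 1.1 to 2.4. Toe1 lies inside the same stretch on the other strand, overlaps Tesk2 and did not pass the test, at 2.09 to 2.41 against 2.11 to 2.43. Mutyh and Hpdl were under 1 FPKM in all PLG+EACA libraries, so they entered the test only through the RNase group. Of the 5 genes that rose there, 3 (Tesk2, Mutyh and Ccdc163) are on the strand of Prdx1.

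**Figure D5:**
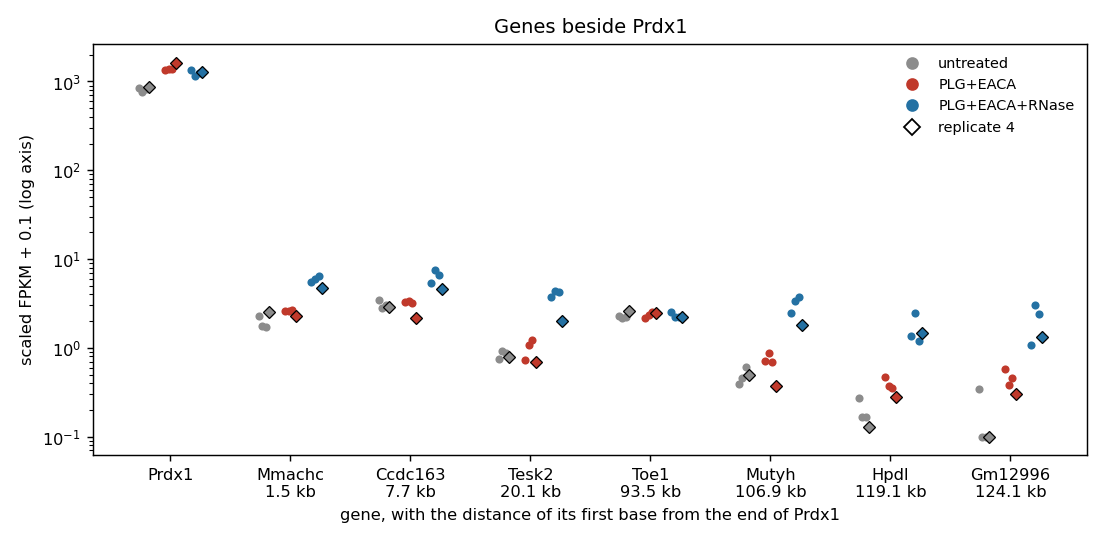
Scaled FPKM + 0.1 on a log axis of Prdx1 and 7 genes beyond its end, ordered by the distance from the end of Prdx1 to the gene's nearest base. The axis calls that base the first, but for genes on the other strand it is the 3′ end. Grey, red and blue are untreated, PLG+EACA and PLG+EACA+RNase libraries and diamonds mark replicate 4. Blue points lie above red ones for all but Prdx1 and Toe1, and Gm12996 was too weak to be tested. Gm27688 lies in the same stretch and is not shown. Its groups overlapped, at 0 to 3.34 with PLG+EACA against 2.86 to 9.67 with PLG+EACA+RNase, and it did not pass the test (limma adjusted p = 0.0793).

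Genes too weak to test were examined as a group. The 19300 genes under 1 FPKM in all 12 libraries took 0.480% ± 0.0529 of counted reads with PLG+EACA, 0.659% ± 0.0588 with PLG+EACA+RNase and 0.601% ± 0.0179 in untreated cells (mean ± SD, n = 4). Every RNase library was above every PLG+EACA library (exact permutation test, two-sided, p = 0.0286, the smallest that 4 against 4 can give; adjusted over 5 measures 0.0476). For those among them that began within 10 kb downstream of an expressed gene, the ratio of the group means (PLG+EACA+RNase to PLG+EACA) was 1.72. It was 1.43 for those overlapping an expressed gene and 1.35 for the 17835 others. At a common depth of 12940888 reads, 20877 ± 583 genes had a read with PLG+EACA, 22921 ± 451 with PLG+EACA+RNase and 21090 ± 170 in untreated cells (exact permutation p = 0.0286, adjusted 0.0476). Both measures were chosen after seeing the data.

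Mitochondrial messenger RNAs were lower in 5 of 11 tested genes and higher in none, with a median of -0.62. The complex I gene mt-Nd2 had 158.3, 137.7, 155.3 and 208.7 with PLG+EACA and 95.0, 62.7, 70.8 and 96.5 with PLG+EACA+RNase, and 175.6 to 220.3 in untreated cells. It fell 2.04-fold (log2 fold change -1.02, SE 0.17, limma adjusted p = 0.0268), to below untreated cells. mt-Nd1 fell 1.84-fold, and mt-Nd5 and mt-Nd6, which overlap on opposite strands, 1.66-fold and 1.92-fold. As a share of counted reads, mitochondrial mRNA was 0.559% ± 0.0655 with PLG+EACA, 0.436% ± 0.0353 with PLG+EACA+RNase and 0.671% ± 0.0444 in untreated cells (mean ± SD, n = 4; exact permutation p = 0.0286, adjusted 0.0476). Of 40 nuclear genes of the respiratory chain 1 fell (median -0.15). None of 41 ribosomal protein genes passed the threshold, and the list took 1.73% of reads with PLG+EACA and 1.82% after RNase exposure (exact permutation p = 0.286). The noncoding RNA Gm26917, which takes a large share of the reads, had 12.4% and 13.9% (exact permutation p = 0.114).

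Cell type markers were checked against the label. The macrophage genes Csf1r (169.0 to 211.8), Adgre1 (95.7 to 163.0), Cd68 (163.4 to 273.4) and Lyz2 (3135 to 5854) were expressed in all 8 libraries. Of the dendritic cell genes, Ccr7 (71.2 to 137.0) and Zbtb46 (4.32 to 5.59) were present and Flt3 (0.273 to 0.606) was near 0. The lymphocyte genes Cd3e and Ncr1 were at most 0.0769 and 0.0583. Of 20 macrophage markers none passed the test, but their median was -0.33 and their summed level was 5304 to 8252 with PLG+EACA and 4816 to 5555 with PLG+EACA+RNase. Among the lower ones without a call were C1qb (68.7 to 99.5 against 36.1 to 66.6) and Mertk (11.9 to 20.03 against 7.23 to 12.3). The 13 tested dendritic cell markers summed to 2002 to 2695 and 2092 to 2537, the 7 neutrophil markers to 174.5 to 222.7 and 157.0 to 223.4, and neither list had a call. Of 17 T, B and NK cell markers none reached the level tested, and they summed to 1.23 to 1.43 and 1.45 to 2.06. The stromal gene Col1a1 ranged from 0.727 to 11.1 with PLG+EACA and from 0.996 to 6.83 with PLG+EACA+RNase. No marker of these lists was at 0 in all 8 libraries, and the part of any cell type in the results above was not tested.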

How the data were processed

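Libraries of total RNA, prepared with a strand-keeping kit per the labels' protocols, were deposited as one table of FPKM. Per the submitters' processing notes, the tools were STAR 2.7.11a, featureCounts 2.0.6, cutadapt 4.5, FastQC 0.12.1 and DESeq2 1.40.2, and the build GRCm38.p6; no role or order is given. The deposited FPKM values carry no scaling between libraries. Whether counting used strand is not stated, so genes that overlap another gene are uncertain, as are near-identical copies. Gene coordinates, those of the deposited table, were identical to GENCODE M21 for 31595 of 32246 identifiers. Counted reads per library were recovered from the size of 1 read in the FPKM columns (100% of values within 0.1 of a whole read). The spread between libraries of a group exceeded counting noise (chi-square per degree of freedom 5.89 to 35.0 over 12 pairs), so no 2 were counted as 1.

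FPKM were scaled by median of ratios over 17113 genes above 0 in all 8 libraries. A total of 10451 genes whose scaled FPKM reached 1 in 4 or more of these libraries entered the test on log2(scaled FPKM + 0.5), so fold changes are on that scale and understate those of low genes. The fit was limma 3.58.1 in R 4.3.3 (lmFit and eBayes with trend), 4 against 4 libraries with no covariate, two-sided, Benjamini-Hochberg adjusted over all genes tested, with a threshold of 0.05. "Rose" and "fell" are used only past that threshold. Measures with 1 value per library were compared by exact permutation tests (Python 3.11.15 with numpy 2.4.6) and adjusted over 5 measures. The numbers of genes with a read at a common depth were computed with scipy 1.17.1. On simulated data of 10283 genes the fit recovered 64.6% of 99 genes changed 1.5-fold and 80.4% of 97 changed 2-fold, with 10 false calls. The simulated spread was drawn separately for each gene and library, with no shift shared by many genes of a library. The 10 false calls therefore do not give the error rate of this comparison.

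The genes, the 41 lists (1158 symbols, 19 of them not matched) and the tests were chosen with earlier results of these data known, so lists carry counts and medians and no test of their own. Named genes are the 12 largest increases and 12 largest decreases past the threshold with a mean of at least 1 FPKM, groups that do not overlap and a named symbol, the tested members of each list with the smallest p, up to 4, and Plg, Gm26917, Hspa1a and Hspa1b. Other genes with a fold change or adjusted p are marked as chosen after their values were seen. Promoters are from RefSeq (GRCm38.p6), matched by symbol for 7764 of the genes tested. Alternatives covered the scaling, the pseudocount, the lower limit, the libraries in the fit, the replicate number as a block, limma's voom on recovered reads and leaving out each library.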

Additional observations from a re-analysis of the deposited data

Results flagged for a closer look

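For each gene named, and for the measures of each library, the 4 libraries of a group were checked for 1 that lay far from the other 3, as the gap to its nearest neighbour divided by the range of the group. Of 272 groups checked, 28 passed Dixon's limit for 4 samples; chance gives about 1 in 20, and the genes are not independent of each other. PLG+EACA replicate 4 was the library in 20 of them. It was the highest for Cd69 (0.888), Calhm6 (0.910), Ifi47 (0.909), Il6 (0.843), Ifit1 (0.897), Trim30d (0.913), Irgm2 (0.885), Gbp7 (0.882), Ifnb1 (0.850), Il15 (0.893), Cxcl1 (0.878), Cxcl10 (0.842), Plek (0.919), H2-M3 (0.882), Isg15 (0.847), Hmgcs1 (0.835), Psma4 (0.948) and Mertk (0.840). It was the lowest for Ccdc163 (0.886) and Plau (0.877).

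PLG+EACA replicate 1 was the highest for Cxxc5 (0.930) and Bcl2a1b (0.910), and replicate 2 for Gm26917 (0.888). With PLG+EACA+RNase, replicate 4 was the highest for Csf1 (0.858) and the lowest for Ltc4s (0.918) and Zfand2a (0.951). Replicate 1 was the highest for Toe1 (0.908), and replicate 2 had the highest share of reads in Gm26917 (0.877).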

How the results depend on the processing

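In limma at a Benjamini-Hochberg threshold of 0.05, the 372 higher and 778 lower genes became 441 and 351 with no scaling, 440 and 299 with upper-quartile scaling, and 445 and 381 with size factors over the genes tested, chosen after seeing the data. They were 51 and 13 with no filter on low values (38 changed at least 1.5-fold), 200 and 870 with a filter at 5 FPKM, and 851 and 1979 with all 12 libraries in the fit (518 changed at least 1.5-fold). Voom on the recovered reads gave 487 and 1129 (533 changed at least 1.5-fold), and leaving out replicate 4 of both groups 687 and 1425 (552). Leaving out 1 library at a time gave 5 to 700 higher, 0 to 1479 lower and 5 to 643 changed at least 1.5-fold. The 46 lower interferon-stimulated genes became 77 with the replicate block, 72 with 12 libraries, 67 with voom, 64 of 77 tested with a filter at 5 FPKM, 34 with no scaling, 26 with upper-quartile scaling, 27 with size factors over the genes tested, 0 with no filter on low values and 0 when any single library other than PLG+EACA+RNase replicate 4 was left out. Without that library 74 were lower. The adjusted p of Hspa1a ran from 0.0465 to 0.104 over those other 7 leave-outs. With no scaling the log2 fold changes of Birc2, Slc39a14, Clec4d and Cflar, -0.29, -0.28, -0.29 and -0.30, became -0.19, -0.18, -0.18 and -0.20, and of the 4 only Clec4d kept its call. No called gene changed sign in any setting that gave it a value, which was nearly fixed in advance because the genes were called in these same libraries. Toe1, which was not called (-0.038), turned to 0.047 with no scaling, 0.041 with upper-quartile scaling and 0.018 with size factors over the genes tested; the cause was not tested.

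The labels give both groups the numbers 1 to 4. The correlations of same-numbered deviations from the group means were -0.226, 0.219, 0.0739 and 0.370, so the numbers were not taken to pair the samples, and not every library correlated best with its own number. With the replicate block 759 genes were higher and 1706 lower, 535 of them changed at least 1.5-fold, including 363 and 766 of the genes above.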

Other observations

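Lists that the text has not yet described are given here beside the 3.56% of all genes that rose and the 7.44% that fell. In BCL2 family and cell death genes, 9 of 30 tested genes fell and 1 rose (median -0.23); the survival genes Bcl2a1d and Cflar fell 1.38-fold and 1.23-fold (limma adjusted p = 0.0354 and 0.0372), and Bcl2a1d has near-identical copies. Of 12 aryl hydrocarbon receptor genes 4 fell (median -0.29). Cyp1b1, a classical target, had 64.0, 56.4, 69.7 and 76.7 with PLG+EACA and 43.3, 30.2, 34.2 and 53.9 with PLG+EACA+RNase, against 73.5 to 77.7 in untreated cells, and fell 1.67-fold; Ahrr, the receptor's repressor, fell 1.26-fold. In cholesterol and fatty acid synthesis 4 of 32 fell, including Hmgcs1 (1.54-fold) and Msmo1 (1.44-fold, from 2.55 to 4.16 down to 1.88 to 2.45, under the 4.43 to 5.43 of untreated cells). Of 36 matrix and TGF-beta response genes 5 fell and 1 rose, with Sdc4, a cell-surface proteoglycan gene, 1.56-fold and Skil, a repressor of SMAD signalling, 1.55-fold lower. Of 38 cell cycle genes 4 fell and 1 rose, shares near those of all genes; Mki67 fell 1.28-fold and E2f8 1.57-fold, and the replication licensing gene Cdt1 rose 1.30-fold. Of 34 proteasome genes 4 fell, Psma4 by 1.45-fold. Tfeb, a lysosomal transcription factor gene, rose 1.51-fold with overlapping groups, the 1 of 35 lysosomal genes that rose while 2 fell. In alternative activation 3 of 20 genes fell and none rose (median -0.16), and among LXR, cholesterol efflux and lipid-associated genes 2 of 31 rose and 3 fell (median -0.08).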
